A study of Homo sapiens with 2 samples.

Results

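The TRIM genes encode a family of ubiquitin ligases named for a shared tripartite front end, which joins a RING finger, one or more B-boxes and a coiled coil. The RING finger recruits a ubiquitin-conjugating E2 enzyme, the coiled coil pairs 2 chains, and a variable C-terminal domain, most often PRY-SPRY, selects the substrate. Several members act in antiviral defence and are themselves transcribed in response to interferon, through the interferon-stimulated response element (ISRE) to which IRF9 and other IRF factors bind. Others act in transcription, at centrosomes or in the turnover of signalling proteins.

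Members were all probe sets of the deposited table to which the platform annotation gave exactly 1 gene symbol made of TRIM, a number and an optional letter. There were 130 such probe sets of 54675 in the table, for 56 genes of 19775 named in this way. The 5 members taken as interferon-inducible were TRIM5, TRIM14, TRIM21, TRIM22 and TRIM25, and the other 51 were set against them. The samples were 2 cultures of CL1-5, a highly invasive human lung adenocarcinoma line. One received 0.11 µM analogue 3 for 24 h and the other DMSO, the solvent, for the same time. Analogue 3 is a derivative of desmosdumotin C, a natural product, and carries iodo, tripropyl and methoxy substituents. Analogue 3 at this dose is toxic to the line, the dose being its stated median effective dose, and each group was 1 array of the Affymetrix U133 Plus 2.0 type. Replicates are therefore lacking, and differences are given without p-values. In such bulk RNA, fewer cells carrying a transcript and less of it per cell cannot be told apart.

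Intensities are multiples of the array median, which was 1 on both arrays. Each gene was read from its brightest probe set by mean log2 intensity, and counted as measured where at least 1 array reached 8. Lower values were raised to 8 before a log2 difference, analogue 3 minus DMSO, was taken, so a fold with 1 array under 8 is a bound, written "at least". Of the 56 TRIM genes, 32 were measured, 26 of them on both arrays. The remaining 24 lay under 8 on both, with TRIM36 the brightest at 6.80 with analogue 3 and 7.14 with DMSO, and 14 of the 24 were at or under the array median on both. Among genes with several probe sets at or above 8 on both arrays, 2874 in all, the SD of 1 probe set's log2 difference was 0.23. Error from the cultures, the RNA and the hybridisation is not part of that spread. Of the epithelial markers KRT8 and KRT18 were measured, KRT18 at 457.9 with analogue 3 and 460.8 with DMSO and KRT8 at 77.8 with analogue 3 and 42.3 with DMSO, while KRT7, KRT19 and EPCAM were not. No fibroblast marker (6 probed) and no leukocyte marker (5 probed) reached 8. Of 5 endothelial markers 2 were measured, CLDN5 at 11.7 with analogue 3 and 35.1 with DMSO, 3.01-fold lower, and PECAM1 at 15.7 with analogue 3 and 11.4 with DMSO, while the other 3 lay under 8.

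More of the measured TRIM genes were lower with analogue 3 than higher, and the largest differences lay in members tied to interferon. Of the 32 measured genes 22 lay below 0, a share of 68.8%, beside 55.5% of all 8523 measured genes. Where only 1 array reached 8, the floor fixed the sign. It was fixed below 0 for TRIM2, TRIM21, TRIM35, TRIM45 and TRIM65 and above 0 for TRIM58. On both arrays, 26 of the 32 and 7737 of the 8523 reached 8, and no share was taken over these alone. Among the 24 measured members outside the interferon lists the share below 0 was 58.3%, close to that of all genes. None was at least 2-fold higher, against a background of 3.74% of all genes measured, and 4 were at least 2-fold lower, which is 12.5% of those measured against a background of 3.92%. The 4 were TRIM25, TRIM56, TRIM38 and TRIM69. All 4 are in the interferon lists given below, which were drawn up with earlier results of these data known. The family's median log2 difference was -0.17 (quartiles -0.58 and 0.07) and that of all measured genes was -0.05.

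The promoters below show where the letters of the ISRE do and do not occur in members named above and in others. No part of the ISRE in the differences was tested. Sequences are from RefSeq's promoter table (GRCh38.p14), which holds 250 bases before to 50 bases after each annotated start and matched 43 of the 56 genes and 23 of the 32 measured ones. TRIM22 was not among the 43. Each window was searched on both strands for the ISRE core, spelled GAAA, any 2 bases, GAAA. The first 5 lines show the 150 bases before the start of the members with a match there, 3 of them interferon-linked and 2 (TRIM44 and TRIM16) not. TRIM16 is the 1 of the 5 that was higher with analogue 3. The TRIM21 line is the short stretch just inside its transcript, where its matches lie. The last 3 lines show the same 150 bases of the 3 members with the largest differences, in whose whole windows the core was not found. Capitals mark the ISRE core, which on the opposite strand reads TTTC, any 2 bases, TTTC.
TRIM5, chr11:5685075-5685224, minus strand: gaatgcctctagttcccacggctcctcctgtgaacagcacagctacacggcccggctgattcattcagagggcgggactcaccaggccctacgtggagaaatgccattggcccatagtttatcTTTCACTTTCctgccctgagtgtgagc
TRIM14, chr9:98119223-98119372, minus strand: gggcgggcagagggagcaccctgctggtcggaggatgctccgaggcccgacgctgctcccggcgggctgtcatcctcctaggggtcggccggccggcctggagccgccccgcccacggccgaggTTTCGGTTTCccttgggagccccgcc
TRIM69, chr15:44736378-44736527, plus strand: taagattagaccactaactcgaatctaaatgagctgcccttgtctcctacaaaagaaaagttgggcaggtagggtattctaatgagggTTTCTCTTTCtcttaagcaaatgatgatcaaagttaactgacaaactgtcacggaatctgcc
TRIM44, chr11:35662625-35662774, plus strand: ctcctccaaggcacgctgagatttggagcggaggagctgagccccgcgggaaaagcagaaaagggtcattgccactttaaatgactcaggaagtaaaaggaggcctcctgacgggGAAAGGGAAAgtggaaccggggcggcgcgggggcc
TRIM16, chr17:15682952-15683101, minus strand: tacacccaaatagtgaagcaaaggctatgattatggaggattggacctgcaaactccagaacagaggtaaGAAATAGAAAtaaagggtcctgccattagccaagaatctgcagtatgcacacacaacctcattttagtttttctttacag
TRIM21, chr11:4393663-4393692, minus strand: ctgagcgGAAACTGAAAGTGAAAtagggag
TRIM25, chr17:56914050-56914199, minus strand: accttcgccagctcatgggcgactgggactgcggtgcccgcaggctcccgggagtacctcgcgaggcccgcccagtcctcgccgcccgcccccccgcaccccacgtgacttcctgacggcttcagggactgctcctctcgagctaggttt
TRIM56, chr7:101085331-101085480, plus strand: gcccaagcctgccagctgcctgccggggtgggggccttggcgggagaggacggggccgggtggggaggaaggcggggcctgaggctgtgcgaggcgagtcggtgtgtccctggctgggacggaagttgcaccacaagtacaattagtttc
TRIM38, chr6:25962652-25962801, plus strand: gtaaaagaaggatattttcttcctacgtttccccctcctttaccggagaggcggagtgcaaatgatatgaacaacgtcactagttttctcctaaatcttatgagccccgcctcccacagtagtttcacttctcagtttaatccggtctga

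The ISRE core was found in 8 of the 58 TRIM windows (13.8%), 1 for each of 8 genes. It was found in 3.57% of all 35116 windows in the table, and in 21 of 42 windows of the interferon-stimulated genes outside the family described further on. The 8 genes were TRIM2, TRIM5, TRIM14, TRIM16, TRIM21, TRIM26, TRIM44 and TRIM69, and all were among the measured members. In TRIM21 and TRIM26 there were 2 overlapping copies each. By group, 5 of the 8 measured interferon-linked members with a window held the core, and 3 of the 15 other measured members with a window. Of the 4 genes at least 2-fold lower, TRIM69 held it and the other 3 did not. Among the interferon-linked members the median log2 difference was -0.52 in the 5 with the core and -1.37 in the 3 without. So few values carry little precision, and only the exact spelling was counted. Near spellings were not, such as the TTTC, 1 base, TTTC of TRIM25, which runs across the start and past the printed bases. A second spelling called GAS, which is TTC, any 3 bases, GAA, was also searched. It was found in 10 of the 58 TRIM windows (17.2%) and in 7.66% of all windows. The 10 windows belong to 7 genes, since TRIM2, TRIM40 and TRIM46 each held it in more than 1 window. For TRIM2 these windows overlap and share the same match. The measured members that held it, TRIM2, TRIM7 and TRIM16, are all outside the interferon lists. A match describes the letters only, and windows reach no further than the bases stated.

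**Figure D1:**
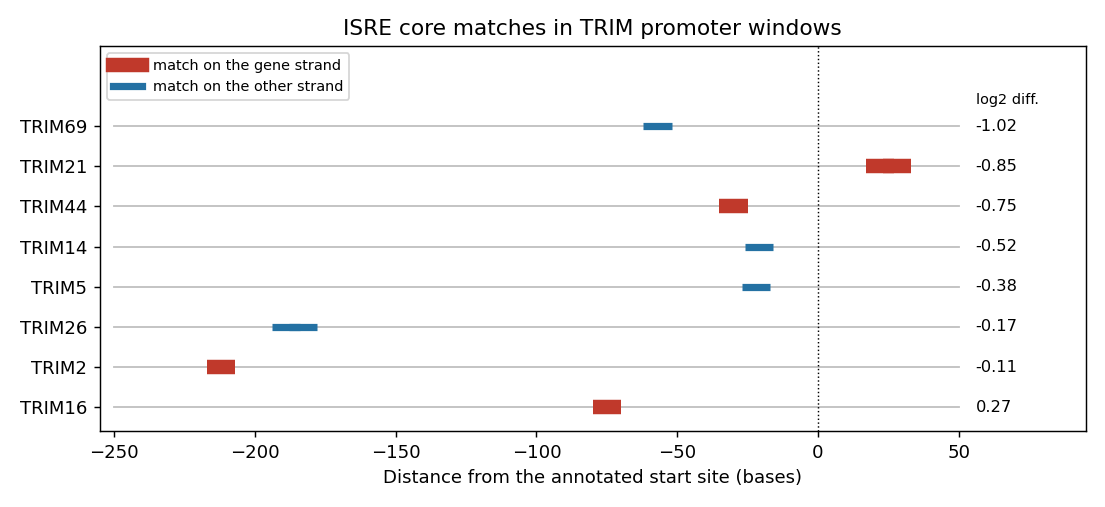
ISRE core matches (bars) in the promoter windows of the 8 TRIM genes that hold one. The horizontal axis is the distance in bases from the annotated start (dotted line), thick red bars lie on the gene's strand and thin blue bars on the other, and the number at the right is each gene's log2 difference, analogue 3 minus DMSO. Genes run down the page in order of that difference, between -1.02 for TRIM69 and 0.27 for TRIM16, and the matches of 6 genes lie within 100 bases of the start.

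TRIM25 had the largest difference of the family among measured genes. It is a PRY-SPRY ligase that builds ubiquitin chains in the RIG-I antiviral route and also transfers the ubiquitin-like protein ISG15. Its probe set 224806_at gave an intensity of 49.8 with analogue 3 and 175.2 with DMSO, a log2 difference of -1.82, or 3.52-fold lower. Its other named probe set was under 8 throughout, reading 4.82 with analogue 3 and 7.93 with DMSO. The difference of TRIM25 thus rests on 1 probe set, since the other was too dim at this floor to give a direction or a size.

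TRIM21 is the cytosolic antibody receptor, a PRY-SPRY ligase that marks antibody-coated particles for the proteasome. TRIM21 read 6.86 with analogue 3 and 14.4 with DMSO, at least 1.80-fold lower. TRIM14, which lacks a RING finger and acts as an adaptor in the mitochondrial antiviral route, was 105.2 with analogue 3 and 151.2 with DMSO, or 1.44-fold lower. Its next probe set read 25.8 with analogue 3 and 33.0 with DMSO, a log2 difference of -0.36 beside -0.52. Both probe sets of TRIM14 were lower by less than 1.5-fold. TRIM5, the retroviral capsid restriction factor, was 45.5 with analogue 3 and 59.1 with DMSO, or 1.30-fold lower. That difference, -0.38 on the log2 scale, is the smallest among the measured members of the 5.

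TRIM22, an interferon-induced antiviral ligase and the neighbour of TRIM5 in a chromosome 11 cluster, was not measured at the floor of 8. Its single probe set, 213293_s_at, read 0.284 with analogue 3 and 6.63 with DMSO. With the floor lowered to 2 times the array median it was at least 3.31-fold lower. The analogue 3 value lies under the array median, so no fold beyond that bound is given. Of the other members in that cluster, TRIM6, a close relative of TRIM5, was 19.5 with analogue 3 and 18.9 with DMSO, or 1.03-fold higher, and TRIM68, further along beside TRIM21, was 16.3 with analogue 3 and 18.4 with DMSO, or 1.12-fold lower. Members of the cluster thus did not share 1 size of difference. The 4 measured members of the 5 were all below 0, with a median log2 difference of -0.69. TRIM21 reached 8 with DMSO alone, so the floor fixed its sign. The other 28 measured members had a median of -0.16, so the difference between the medians was -0.52. These 5 genes were grouped with earlier results of these data known, and 4 values carry little precision.

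A further 5 TRIM genes reported as interferon-responsive in human cells were listed, and 4 of them had a probe set of their own, all measured. All 4 were below 0, with a median of -1.13, and 3 were at least 2-fold lower. The shares over all measured genes were 55.5% under 0 and 3.92% past 2-fold in that direction. The list was chosen with earlier results of these data known. TRIM56, which promotes antiviral signalling through STING and double-stranded RNA sensing, was 14.2 with analogue 3 and 36.9 with DMSO, or 2.59-fold lower. Its next probe set read 2.45 with analogue 3 and 9.39 with DMSO, so both were lower with analogue 3, although the second gives a bound of only -0.23 on the log2 scale and the median of the pair, -0.80, is short of 2-fold.

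TRIM38, a PRY-SPRY ligase that restrains Toll-like receptor signalling, was 27.4 with analogue 3 and 64.7 with DMSO, or 2.36-fold lower. It had the most probe sets to compare. The other 3 at or above 8 on both arrays differed by -1.08, -0.998 and -0.44 on the log2 scale, beside -1.24 in the brightest. All 4 were lower, and the smallest difference came from an x_at probe set, a type that can share sequence with other transcripts. TRIM69, an interferon-induced antiviral member, was 10.2 with analogue 3 and 20.8 with DMSO. At 2.03-fold lower it lay just past the 2-fold mark, and it fell short of it after centring (-0.97 on the log2 scale), quantile normalization (-0.92) and removal of a loess trend (-0.88). TRIM26, a ligase of the major histocompatibility region, was 10.7 with analogue 3 and 12.03 with DMSO, 1.12-fold lower, which is smaller than the SD of 1 probe set. TRIM34 is annotated together with the TRIM6-TRIM34 readthrough on its probe sets, the brighter of which was 3.52 with analogue 3 and 4.63 with DMSO, so it was not a member.

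**Figure D2:**
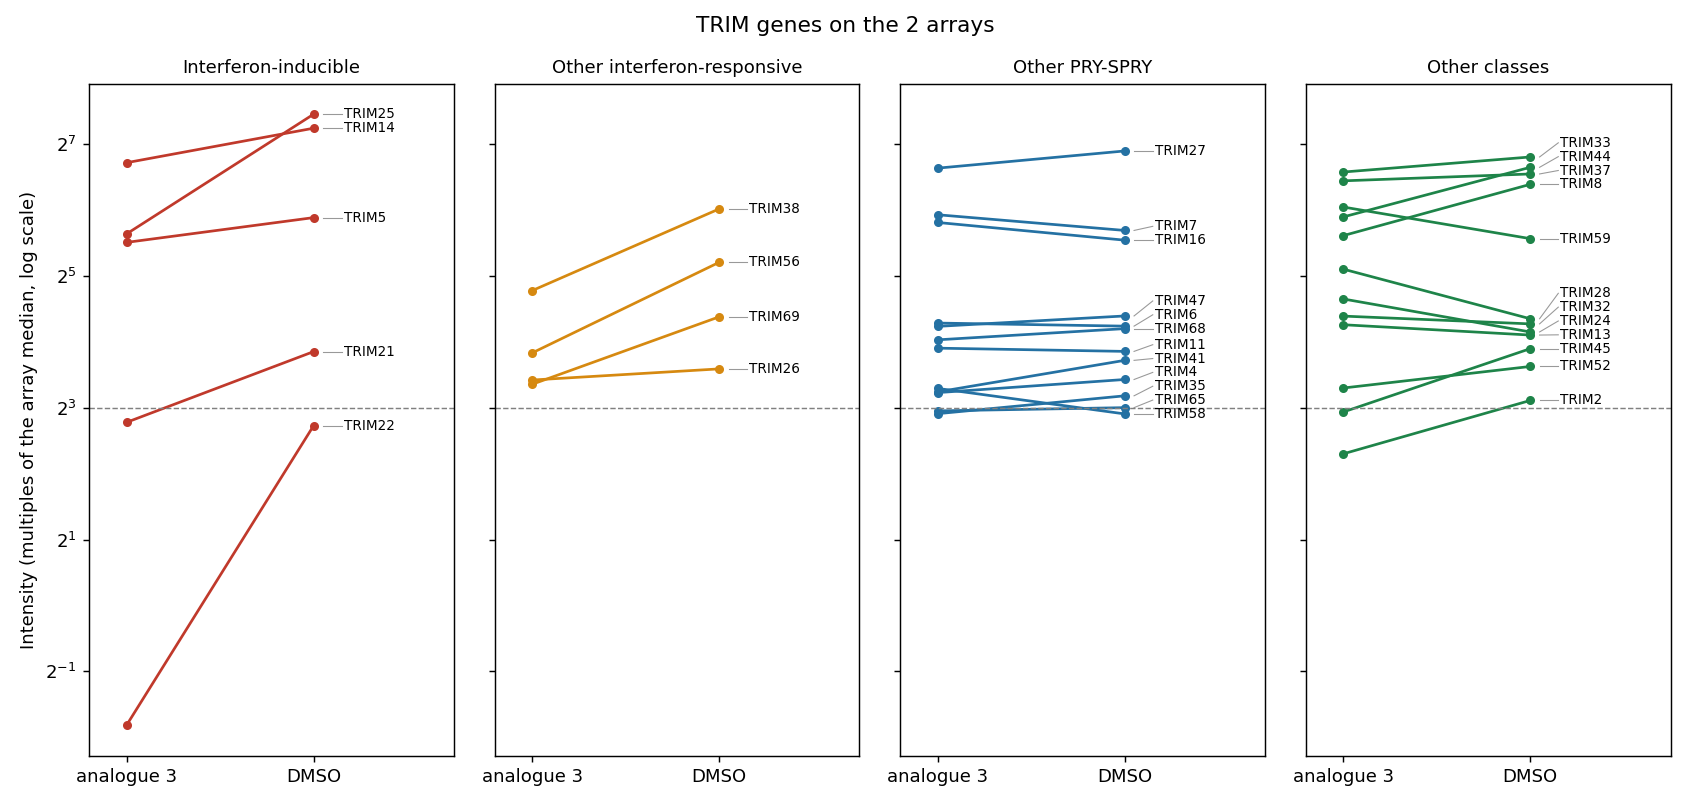
Intensity of each measured TRIM gene and of TRIM22 on the analogue 3 array (left point) and the DMSO array (right point), in multiples of the array median on a log2-spaced axis. Panels hold the 5 interferon-inducible members, 4 other interferon-responsive members, other PRY-SPRY members and other classes, and the dashed line is the floor of 8. Heights of different genes come from different probes and are not comparable, and what can be read is the slope: all 9 genes in the first 2 panels lie lower with analogue 3, while the other panels slope both ways.

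Outside both interferon lists 24 members were measured, with a median of -0.11, 14 of them below 0 and 10 above. The share below 0 was 58.3%, beside 55.5% of all measured genes. Of the 24, 19 reached 8 on both arrays, and in the others the floor fixed the sign. None of the 24 was 2-fold different in either direction. At 1.5-fold, 3 were lower (12.5%, background 12.9%) and 1 was higher (4.17%, background 9.60%). The 3 were TRIM45, TRIM8 and TRIM44, and the 1 was TRIM28. The interferon lists were drawn up with earlier results of these data known. Shares near the background among the members left over may therefore follow from how the lists were made. Over the whole family, 8 genes were at least 1.5-fold lower, which is 25% of those measured against a background of 12.9%.

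TRIM45, a filamin-domain member, lay just short of the 2-fold mark, at 7.64 with analogue 3 and 14.9 with DMSO, at least 1.86-fold lower. TRIM8, which has no C-terminal domain of a named class and acts in cytokine and NF-κB signalling, was 48.9 with analogue 3 and 83.8 with DMSO, or 1.71-fold lower. The log2 difference of its next probe set was -0.60 beside -0.78. TRIM44, a member without a RING finger that carries a ubiquitin-protease-type zinc finger, was 59.5 with analogue 3 and 100.2 with DMSO, or 1.69-fold lower. Its 2 probe sets gave log2 differences of -0.75 and -0.77, so TRIM44 and TRIM8 were each lower in a pair of separate probe sets. TRIM52, which like these has no named C-terminal domain, was 9.84 with analogue 3 and 12.3 with DMSO, or 1.25-fold lower.

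The PHD and bromodomain members are chromatin regulators. TRIM28, the co-repressor that KRAB zinc finger proteins recruit, had the largest difference upward of the family, at 34.4 with analogue 3 and 20.4 with DMSO, or 1.69-fold higher. With the floor at log2 5 its difference was 0.10 on the log2 scale and that of TRIM59, a membrane-anchored member, was 0.48. TRIM24, a nuclear receptor co-regulator, was 25.1 with analogue 3 and 17.7 with DMSO, or 1.41-fold higher, 0.50 on the log2 scale, and its next probe set gave 0.38. Both TRIM24 probe sets are of the x_at type. TRIM33, a regulator of SMAD signalling, was 95.3 with analogue 3 and 111.7 with DMSO, a log2 difference of -0.23. Its other 2 probe sets gave -0.38 and 0.06, so its direction was not settled between them.

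TRIM59 and TRIM37 belong to other small classes. TRIM59 was 66.0 with analogue 3 and 47.3 with DMSO, or 1.39-fold higher. A probe set annotated to both TRIM59 and its neighbour IFT80, outside the member rule, read 8.56 with analogue 3 and 7.41 with DMSO. TRIM37, a MATH-domain ligase that limits centriole assembly, was 86.9 with analogue 3 and 93.4 with DMSO, or 1.08-fold lower. TRIM13, a membrane-anchored ligase of the endoplasmic reticulum, was 19.1 with analogue 3 and 17.2 with DMSO. Both the TRIM37 and the TRIM13 differences were under the SD of 1 probe set. The NHL-repeat member TRIM32 was 21.0 with analogue 3 and 19.3 with DMSO, and TRIM2 was 4.92 with analogue 3 and 8.63 with DMSO, which at the floor is a bound of 1.08-fold lower.

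Of the other PRY-SPRY members 12 were measured, and their floored log2 differences lay between -0.48 (TRIM41) and 0.29 (TRIM58, a bound that is 0.39 with no floor), with a median of -0.08. TRIM41 was the lowest, at 9.45 with analogue 3 and 13.2 with DMSO, or 1.39-fold lower. TRIM16, a RING-less member tied to the oxidative stress response, was 56.1 with analogue 3 and 46.6 with DMSO, or 1.20-fold higher. TRIM7, a ligase named for its binding of glycogenin, was 60.8 with analogue 3 and 51.6 with DMSO, or 1.18-fold higher. TRIM27, a transcriptional repressor first found as a fusion partner of the RET kinase, was 99.3 with analogue 3 and 119.0 with DMSO. Its 3 probe sets were all lower, by -0.26, -0.08 and -0.57 on the log2 scale, which shows how far probe sets of 1 gene can part. TRIM4 differed by -0.20 in its brighter probe set and read 4.09 with analogue 3 and 11.02 with DMSO in the next. TRIM6, TRIM11, TRIM47 and TRIM68, at or above 8 on both arrays, had log2 differences between -0.17 and 0.05. TRIM35, TRIM58 and TRIM65 had 1 array under 8. TRIM58, the 1 of these with the DMSO array under it, was 9.80 with analogue 3 and 7.49 with DMSO, at least 1.22-fold higher. None of the 8 COS-box members was measured, among them the muscle ligase genes TRIM54, TRIM55 and TRIM63.

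**Figure D3:**
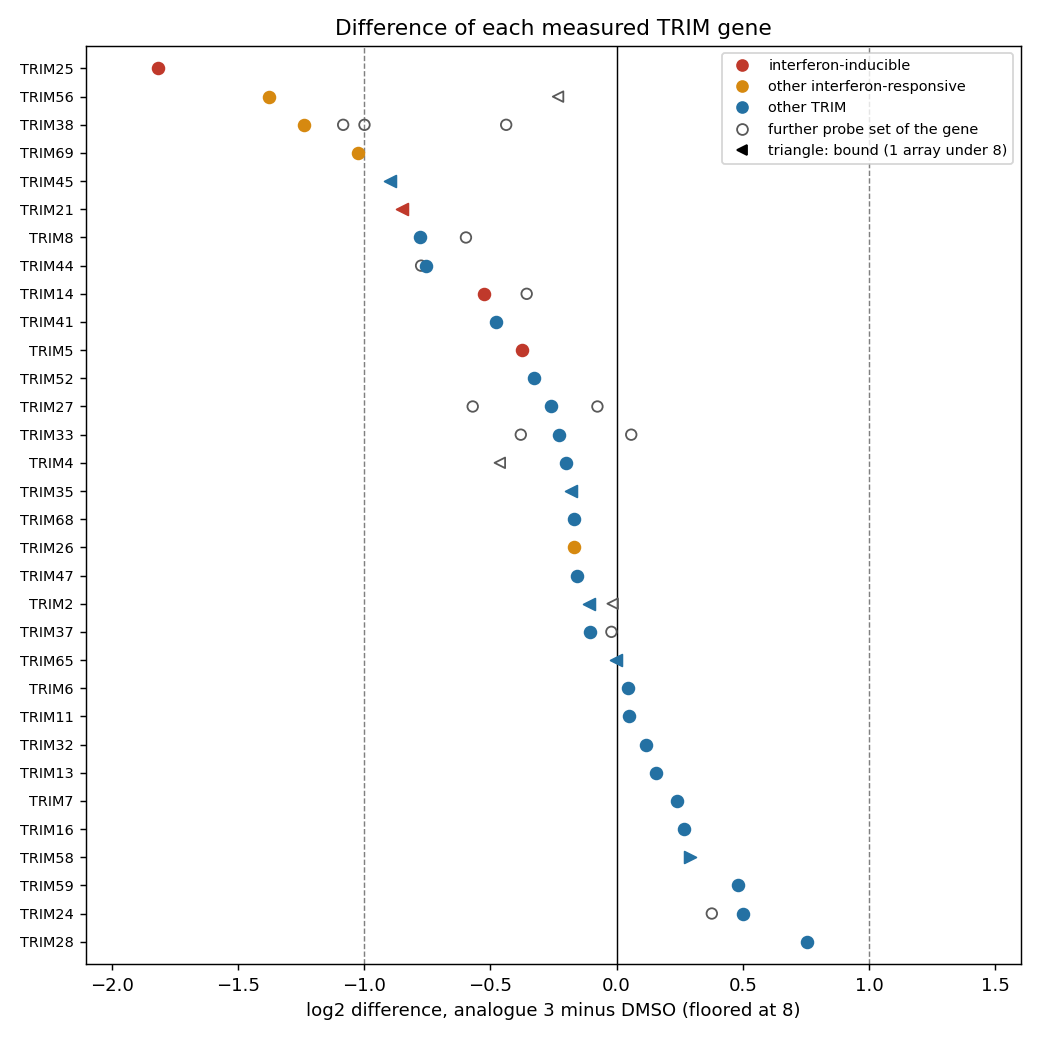
The log2 difference, analogue 3 minus DMSO, of the 32 measured TRIM genes, each from its brightest probe set (filled, coloured by list), with further measured probe sets of the same gene as open symbols. Triangles are bounds, where 1 array lay under 8, and dashed lines mark 2-fold. TRIM25, TRIM56, TRIM38 and TRIM69 lie beyond the left line, no gene lies beyond the right one, and TRIM28 is the highest at 0.75.

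Where a second probe set was at or above 8 on both arrays, it had the same sign as the brightest in 8 of 8 TRIM genes. Over all genes of that kind the signs matched in 2287 of 2874. The 4 genes at least 2-fold lower were supported unequally by this measure. TRIM38 had 3 further such probe sets, TRIM56 had one measured on the DMSO array alone, and TRIM25 and TRIM69 had none at or above 8.

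Interferon-stimulated genes outside the family showed larger differences of the same sign. Of 33 listed genes with a probe set of their own, 31 were measured, all of them below 0, 23 at least 2-fold lower (background 3.92%) and a median of -1.48. In 8 of the 31 only the DMSO array reached 8, so the floored sign could only be negative. Some of these 8 are among the 23 past 2-fold. The genes that reached 8 on both arrays, also 23 in number but not the same set, were all below 0 as well. By floored difference, in which 8 of the 31 are bounds, the largest were in the membrane restriction factor gene IFITM1, at 2.88 with analogue 3 and 79.1 with DMSO, in CMPK2 (18.5 with analogue 3, 146.9 with DMSO) and in the antiviral GTPase gene MX1 (47.8 with analogue 3, 300.7 with DMSO). The order depends on the floor, since IFI16, a bound of -1.92 on the log2 scale, was at -4.01 with no floor, beyond the -2.99 of CMPK2. IRF9, a factor that binds the ISRE, was 70.5 with analogue 3 and 118.4 with DMSO, or 1.68-fold lower. The medians of the 2 interferon-linked TRIM groups, -0.69 and -1.13, were closer to 0 than this one. Leukocytes also express these genes, and all 5 leukocyte markers lay under the floor on both arrays. LCP1 was 0.599 with analogue 3 and 1.25 with DMSO, and PTPRC 0.493 with analogue 3 and 0.492 with DMSO. A part of leukocytes in the differences was not tested.

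The RIG-I route, in which TRIM25 acts, was listed with 10 genes, of which 8 were measured, with a median of -0.61. The RNA sensor genes IFIH1 and RIGI were at least 2-fold lower, 2 of the 8 against a background of 3.92%. IFIH1 was 28.9 with analogue 3 and 131.5 with DMSO, or 4.55-fold lower, and RIGI was 64.6 with analogue 3 and 195.6 with DMSO, or 3.03-fold lower. MAVS, the mitochondrial adaptor, was 26.4 with analogue 3 and 48.6 with DMSO, or 1.84-fold lower. RNF135, the RIPLET ligase that ubiquitinates RIG-I, was 62.1 with analogue 3 and 93.5 with DMSO, or 1.51-fold lower, and the adaptor gene TRAF3 was 1.54-fold lower. ZC3HAV1, the antiviral protein for which TRIM25 is a cofactor, differed by 1.17-fold, and the kinase TBK1 and the factor IRF3 by 0.05 and 0.16 on the log2 scale.

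Among E2 enzymes that TRIM ligases can use, 6 had probe sets of their own and all were measured, 4 above 0 and 2 below. UBE2L6, the E2 of ISG15 conjugation and itself interferon-inducible, was 140.4 with analogue 3 and 341.0 with DMSO, or 2.43-fold lower. UBE2N, an E2 that builds chains used in signalling rather than degradation, was 327.7 with analogue 3 and 206.3 with DMSO, or 1.59-fold higher. UBE2E3 and UBE2K were 1.31- and 1.28-fold higher, UBE2V2 was 1.13-fold higher and UBE2E1 1.13-fold lower. The E2 list thus held differences of both signs.

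Of 12 genes of the co-repressor complex around TRIM28 9 lay above 0, beside 3789 of all 8523 measured genes, with a median of 0.23. None was 2-fold different, against a background of 3.74% higher and 3.92% lower, so the count of 0 does not set the list apart. The heterochromatin protein gene CBX3 was 468.8 with analogue 3 and 273.6 with DMSO, or 1.71-fold higher, which is close to TRIM28's own 1.69-fold. CBX1 and CBX5, its relatives, were 1.46- and 1.43-fold higher, DAXX and HDAC2 were each 1.33-fold higher, and MORC3 was 1.32-fold lower. SETDB1, the histone methyltransferase that TRIM28 brings to its targets, was 7.73 with analogue 3 and 10.5 with DMSO, at least 1.31-fold lower.

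**Figure D4:**
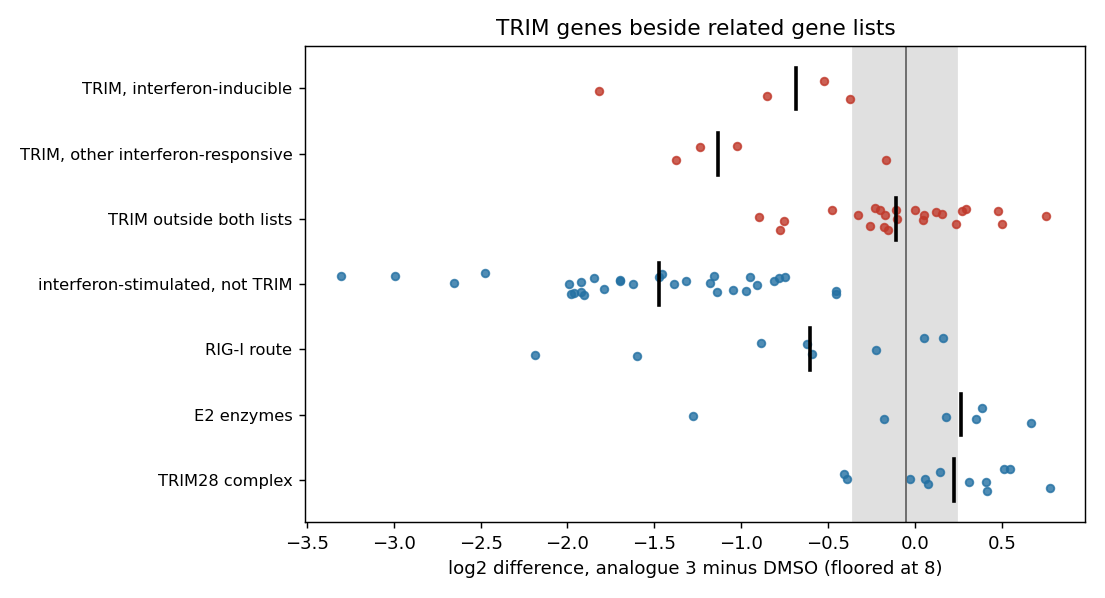
Floored log2 differences, analogue 3 minus DMSO, of measured genes (points, jittered vertically) in 3 groups of TRIM genes (red) and 4 related lists (blue), with each median as a black bar. The grey line and band are the median and quartiles of all 8523 measured genes. The medians of both interferon-linked TRIM groups (-0.69 and -1.13) lie left of the band with that of the interferon-stimulated genes (-1.48), and the median of the other TRIM genes (-0.11) lies inside it.

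TRIM-class proteins whose genes carry other names were sparsely measured, at 2 of 8. TRIML2, a TRIM-like gene, was 31.5 with analogue 3 and 120.9 with DMSO, or 3.83-fold lower, a larger difference than that of any measured member. PML, the interferon-inducible organiser of nuclear bodies, was 7.07 with analogue 3 and 8.997 with DMSO, a bound of 1.12-fold lower. MID1 was 2.69 with analogue 3 and 2.82 with DMSO, and MID2 was 6.22 with analogue 3 and 5.43 with DMSO. Both are microtubule-bound ligases, and both lay under the floor. TRIM39 was annotated only together with its readthrough to RPP21. Its probe set without RPP21 itself was 17.2 with analogue 3 and 29.1 with DMSO, or 1.69-fold lower, and the one that also covers RPP21 was 145.2 with analogue 3 and 149.2 with DMSO.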

How the data were processed

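The authors deposited 1 linear intensity per probe set and array. Per the submitters' processing notes GCRMA made these values, and the sources used here give no version for it. The median of 1 on each array was read from the values, and no label states that scaling. Depth does not apply to arrays, and their number, 1 per group, limits the precision. Gene symbols came from the platform annotation at GEO, and all 130 TRIM probe sets matched RefSeq (GRCh38.p14) by gene number.

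Values were log2-transformed, floored at log2 3 (8 times the array median, reached by 26.0% of probe sets with analogue 3 and 26.8% with DMSO), and called at 2-fold. A stricter floor of log2 5, used earlier on these data, became an alternative. Members and lists were chosen with earlier results of these data known. The genes that could be named were every measured TRIM gene, TRIM22, up to 6 members of each list by size of difference, and PML, MID1, MID2, SETDB1 and IRF9. TBK1, IRF3 and IFI16 were named beyond that limit. TRIM genes under the floor, probe sets with several symbols, and markers were named after their values were seen. Alternatives were other floors, centring, loess (span 0.3), quantile normalization, the median of probe sets, no s_at or x_at probe sets, and thresholds of 1.5-fold and 3-fold. The procedure was tested on simulated data, with changes planted only in genes at a mean level of at least 32. Recovery of changes near the floor of 8 and the choice of probe set were not tested. Python 3.11.15 with pandas 2.3.3 and statsmodels 0.14.6 was used.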

Additional observations from a re-analysis of the deposited data

How the results depend on the processing

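All values rest on 1 array per group, so no error between cultures could be had. Signal over background was the limit for members near 8. With the floor at log2 1, 40 TRIM genes were measured and 6 were at least 2-fold lower, with TRIM21 (-1.07) and TRIM22 added. The median of the 5 interferon-inducible members was then -1.07, its distance from the other members -0.97, and the medians of the PHD and bromodomain class, TRIM-class genes of other names and interferon-stimulated genes were 0.20, -0.066 and -1.82. With it 586 of the 11158 genes measured at that floor were at least 2-fold lower. With the floor at log2 5, 14 TRIM genes were measured and 2 were lower (TRIM25 and TRIM38). Of the 5050 genes measured at that floor, 175 were at least 2-fold higher and 135 lower. The other interferon-responsive members had a median of -0.61 over 2 genes, the PHD and bromodomain class -0.063 over 2 and the TRIM-class genes of other names -1.92 over 1. A floor changes both which genes pass and the values of those that stay: at log2 5 TRIM28 was at 0.10, TRIM56 at -0.21 and TRIM38 at -1.02. With no floor the NHL class was at -0.35 and interferon-stimulated genes at -1.85. Without s_at and x_at probe sets the 5 were represented by 2 genes with a median of -1.33, -1.16 from the other members. The PHD and bromodomain class was represented by 2 at 0.19. In that setting 23 TRIM genes were measured, and TRIM5, TRIM8, TRIM14 and TRIM38 were among those lost. At 1.5-fold, 8 of 32 TRIM genes were lower and 1 higher, with 1099 lower and 818 higher of all 8523 measured genes. At 3-fold, 1 TRIM gene was lower, with 90 lower and 72 higher of the same 8523. TRIM69 fell short of 2-fold after centring (-0.97), quantile normalization (-0.92) and loess (-0.88), and TRIM56 did with the median of its probe sets (-0.80) and with the floor at log2 5. TRIM25 was at least 2-fold lower in all 9 settings that kept that threshold. The median of the 5 stayed below that of the other members in the same 9, by between -0.32 and -1.16. No COS-box gene was measured, so that class has no value. No paired analysis was possible because each group had 1 array.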
